A study of Homo sapiens with 20 samples.

Results

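The genes described here are those whose transcripts in SUM44 cells were higher with estradiol than with vehicle at 3 h and close to the vehicle level at 24 h. SUM44 is a human breast cancer cell line of invasive lobular origin that carries the estrogen receptor, and estradiol (E2) is the receptor's main natural ligand. Each gene was represented by the probe set, among those annotated to a single gene symbol, with the highest mean over all 20 arrays. A gene was a member when E2 minus vehicle was at least 0.585 log2 units at 3 h (1.5-fold), when the same difference at 24 h lay within 0.3 of 0, and when its E2 mean at 3 h was at least 6.5. The rule found 105 of 11963 genes. The members were thus selected on E2 minus vehicle at 3 h and 24 h and on the E2 level at 3 h, and these values are given below as a description, with no test.

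Transcript levels were measured on 20 arrays, 4 in each of 5 groups. The groups were 1 nM E2 for 3 h, 0.01% ethanol vehicle for 3 h, 1 nM E2 for 24 h, 0.01% ethanol vehicle for 24 h, and cells taken at 0 h without either treatment, called the baseline. All groups had first spent 3 days in hormone-deprived medium with charcoal-stripped serum, given as 2% serum in one place of the submitters' descriptions and as 10% in another, so the baseline is a deprived state and not normal growth. SUM44 is one established line grown alone, and the submitters call the 4 arrays of a group biological replicates without saying what separates them, so the p-values below measure the spread between these cultures of one line. Values are deposited log2 levels, in which 1 unit is a doubling, and levels of different probe sets cannot be set against each other.

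Estradiol binds the estrogen receptor, a nuclear transcription factor that acts on enhancers often far from the gene, and the earliest target genes respond before new protein has to be made. Some early targets stay high while the hormone is present, and others are high for a short time and then return towards their starting level. Short-lived early responses are known for unstable transcripts such as those of immediate-early transcription factors, growth-factor ligands and stress regulators. RNA was taken at 3 h and 24 h, so the time at which a member peaked or returned was not measured.

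Luminal markers were well above the dim range and most markers of other cell types were in it. The 9 measured luminal marker genes, among them the estrogen receptor gene ESR1, GATA3 and FOXA1, had means of 11.28 to 13.91 over the arrays. Of the basal, stromal, and immune and endothelial markers, 3 of 5, 7 of 10 and 8 of 10 lay below 6.11, the level under which the dimmest 25% of genes fell. CDH1, the E-cadherin gene known to be inactivated in lobular carcinoma, had a mean transcript level of 9.24, and protein was not measured.

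Most of the genes that passed the 3 h threshold were also higher by at least 0.3 at 24 h. E2 minus vehicle at 3 h was at least 0.585 in 326 genes, 2.73% of those measured. Of these, 210 were also higher by at least 0.3 at 24 h, 10 were lower by at least 0.3, and 106 lay between, where 82.4% of all genes lay. The minimum level then left out LRRC2, whose E2 mean at 3 h was 4.24. The 3 h difference of the 105 members ran from 0.586 to 2.55 with a median of 0.841, and 35 members reached at least 1, a doubling. In each member all 4 E2 arrays at 3 h lay above all 4 vehicle arrays, where 13.4% of all genes did. In a bulk extract, more RNA per cell and more cells with the transcript cannot be told apart. The 24 h difference ran from -0.293 to 0.299 with a median of 0.0994, and it was above 0 in 74 members and below 0 in 31. The 24 h limit therefore did not select values centred on 0, and 41 members still had all 4 E2 arrays above all 4 vehicle arrays at 24 h, where 18.8% of all genes did. A further 15 members had all E2 arrays below all vehicle arrays at 24 h, where 22.5% of all genes did.

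**Figure D1:**
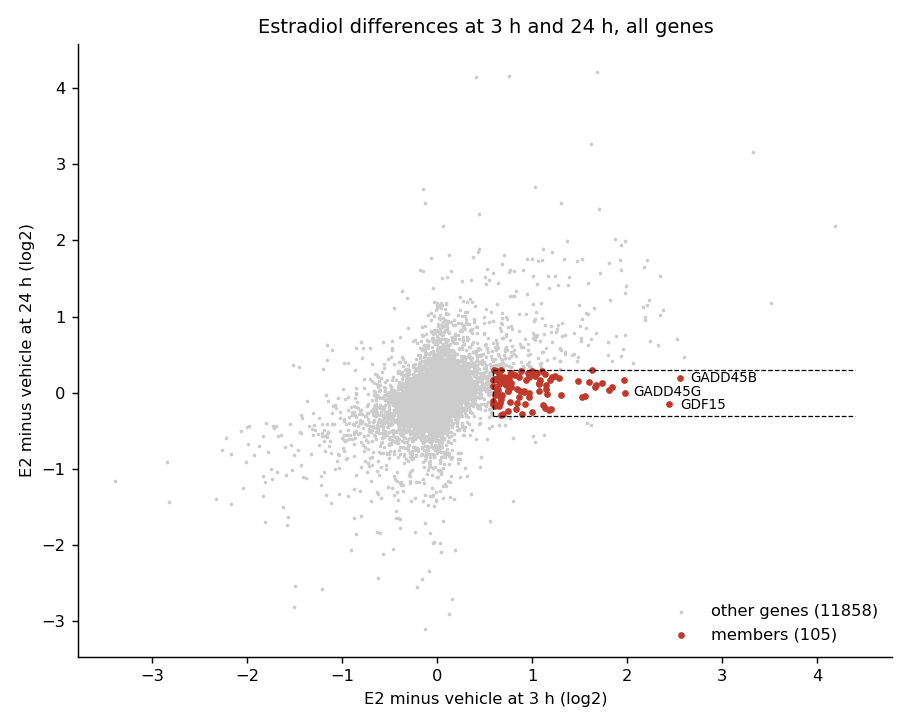
E2 minus vehicle at 3 h (horizontal axis, log2) and at 24 h (vertical axis, log2) for 11963 genes, with the 105 members in red and the limits of the rule as dashed lines. The members form a band between -0.293 and 0.299 on the vertical axis, and GADD45B, GDF15 and GADD45G lie farthest to the right.

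At the 3 h threshold the nearest members were UST at 0.5856, PDGFB and MARCKSL1, and the nearest genes outside were CASZ1 at 0.5839, MYNN and WIPI1. At the 24 h limit the nearest members were CBFA2T3 at 0.2993, PTPRE and PLEKHO2, and the nearest genes outside were KLHL3 at 0.3099, ABTB2 and SLF2. By level the dimmest members were ARAP3 at 6.51, PPFIA4 and NXPE3, and the gene outside was LRRC2 at 4.24.

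The largest 3 h differences were in GADD45B, GDF15 and GADD45G, and of these GADD45B and GADD45G belong to the stress and growth role of 4 members. GADD45B and GADD45G encode small stress-inducible proteins that bind a kinase at the top of the p38 and JNK cascades and are linked to growth arrest. GADD45B read 9.86, 10.06, 10.06 and 9.93 with E2 at 3 h, against 7.46, 7.35, 7.51 and 7.40 with vehicle at 3 h. At 24 h it read 8.11, 7.99, 7.97 and 7.99 with E2, against 7.76, 7.89, 7.85 and 7.79 with vehicle, and the baseline arrays read 7.68, 7.69, 7.62 and 7.71. The E2 arrays at 3 h stood apart from all others, by 2.55 ± 0.05 over vehicle (SE of the fit), and the groups at 24 h did not overlap either. GADD45G read 9.29, 9.31, 9.25 and 9.14 with E2 at 3 h, against 7.36, 7.08, 7.33 and 7.32 with vehicle. At 24 h it read 7.27, 7.65, 7.59 and 7.53 with E2, against 7.45, 7.43, 7.60 and 7.55 with vehicle, so the groups overlapped after a 3 h difference of 1.97 ± 0.08. The other members of this role were PPM1D, a phosphatase that opposes p53 signalling, and HIPK2, a kinase of the DNA damage response. Their 3 h differences were 0.77 ± 0.05 and 0.63 ± 0.12, both under the median of 0.841 over all members.

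GDF15, a secreted stress cytokine of the TGF-beta superfamily, showed the largest distance from baseline. It read 9.40, 9.31, 9.46 and 9.55 with E2 at 3 h, against 6.88, 7.06, 6.86 and 7.15 with vehicle. Both 3 h groups lay above the baseline arrays, which read 6.0, 6.27, 6.22 and 6.29. At 24 h it read 6.24, 6.24, 6.20 and 5.82 with E2, against 6.14, 6.25, 6.20 and 6.49 with vehicle, and these groups overlapped each other and the baseline. Its probe set is of a design that can bind related transcripts. The other GDF15 probe set was dim and read 5.24 with E2 and 5.15 with vehicle at 3 h, a difference of 0.09.

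The promoters of these strongest members and of FOS are shown because the members share a time course and their start regions can be read beside it. The sequences are the 250 bases before the annotated start, 5′ to 3′ on the gene's strand, from RefSeq on GRCh38.p14: GADD45B at chr19:2475877-2476126 (plus strand), GADD45G at chr9:89604762-89605011 (plus strand), GDF15 at chr19:18385908-18386157 (plus strand) and FOS at chr14:75278578-75278827 (plus strand). Capitals mark matches on either strand to the TATA box TATAAA, the EGR element GCGNGGGCG, the E-box CACGTG and the cyclic AMP response element (CRE) TGACGTCA.
GADD45B: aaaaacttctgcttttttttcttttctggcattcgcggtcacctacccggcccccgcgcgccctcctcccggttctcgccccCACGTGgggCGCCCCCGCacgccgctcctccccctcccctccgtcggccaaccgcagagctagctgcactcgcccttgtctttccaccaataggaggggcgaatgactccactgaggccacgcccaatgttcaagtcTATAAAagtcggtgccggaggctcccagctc
GADD45G: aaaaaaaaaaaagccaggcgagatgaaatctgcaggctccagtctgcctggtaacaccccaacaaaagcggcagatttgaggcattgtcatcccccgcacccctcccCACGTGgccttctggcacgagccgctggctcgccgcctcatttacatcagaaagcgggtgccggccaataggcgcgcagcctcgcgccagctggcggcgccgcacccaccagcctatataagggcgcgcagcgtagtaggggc
GDF15: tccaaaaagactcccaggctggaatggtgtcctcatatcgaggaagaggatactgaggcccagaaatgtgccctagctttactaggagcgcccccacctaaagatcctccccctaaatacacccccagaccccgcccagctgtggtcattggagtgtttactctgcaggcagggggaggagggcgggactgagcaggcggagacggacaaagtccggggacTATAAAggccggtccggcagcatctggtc
FOS: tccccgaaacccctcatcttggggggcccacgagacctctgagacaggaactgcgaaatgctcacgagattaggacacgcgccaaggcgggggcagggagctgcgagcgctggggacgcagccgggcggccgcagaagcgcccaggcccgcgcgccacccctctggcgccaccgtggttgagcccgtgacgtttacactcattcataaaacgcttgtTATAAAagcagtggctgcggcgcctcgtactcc
TATAAA stood in the promoters of GADD45B, GDF15 and FOS, starting 31, 29 and 33 bases before the start. Only exact matches were marked, so the similar letters tatataag near the end of the GADD45G sequence were not. GADD45B and GADD45G each held CACGTG, starting 168 and 143 bases before it, and GADD45B also held an EGR element on the other strand, read as CGCCCCCGC. These matches are letters in the reference sequence, and binding was not measured.

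Of the 105 members, 88 had a RefSeq promoter, here 250 bases before to 50 after the start. The median GC content was 72.3% in the members and 64% over the 9563 measured genes with a promoter, against 68.7% in the 103 promoters of genes induced at both times. The full estrogen response element GGTCANNNTGACC was found in 0 of 88 members and in 0.0209% of all genes, and its shorter part GGTCA, which every full match contains, in 25% and 34.5%. Elements of the immediate-early response were found as follows: the AP-1 site TGANTCA in 3.41% of members and 5.43% of all genes, and the EGR element in 25% of members and 14.3% of all genes. CRE was found in 5.68% of members and 3.06% of all genes, and the SRF-binding CArG box in 2.27% and 1.28%. TATAAA was found in 9.09% of members and 8.3% of all genes, and the 8 members were ELF3, FOS, GADD45B, GDF15, JARID2, RHOBTB3, SLC2A1 and ZPR1. CACGTG was found in 10.2% of members and 9.51% of all genes, CCAAT in 31.8% and 37.3%, and the SP1-type GC box GGGCGG in 81.8% and 63.1%. The GC box was also in 70.9% of the genes induced at both times. It was in 83.3% of 66 genes lower with E2 at 3 h and near vehicle at 24 h. The EGR element was in 19.4% and 18.2% of these sets. The EGR element and the GC box share letters and are rich in G and C, and the part of GC content in these shares was not tested.

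Ligands and receptors, 9 members, had a median 3 h difference of 1.28, against 0.841 over all members. TGFA, a ligand of the EGF receptor, read 9.58, 9.63, 9.65 and 9.60 with E2 at 3 h, against 7.99, 7.98, 7.96 and 7.86 with vehicle, a difference of 1.67 ± 0.04. At 24 h it read 8.14, 8.12, 8.12 and 8.04 with E2, against 8.01, 8.03, 8.11 and 7.98 with vehicle. The 24 h groups overlapped. ADORA1, the adenosine A1 receptor, read 11.81, 11.96, 11.88 and 11.83 with E2 at 3 h, against 10.09, 10.07, 10.00 and 10.08 with vehicle. ADORA1 was the member of this role whose later arrays, 10.14 to 10.25 with E2 and 10.04 to 10.23 with vehicle at 24 h, lay below all baseline arrays, 10.33 to 10.45. SEMA3F, a secreted semaphorin that guides migrating cells, was higher by 1.28 ± 0.03, COLEC12, a scavenger receptor, by 1.56 ± 0.09, and ACKR3, an atypical receptor that takes up the chemokine CXCL12, by 1.13 ± 0.03. LRP4, a receptor of the LDL family, was higher by 1.00 ± 0.07, ADGRG1, an adhesion G-protein-coupled receptor, by 0.64 ± 0.04, and PDGFB, a platelet-derived growth factor chain, by 0.59 ± 0.06. The PDGFB probe set, like that of GDF15, can bind related transcripts.

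Transcription and chromatin regulators were the largest role with 23 members and a median 3 h difference of 0.764. CBFA2T3, a transcriptional corepressor, read 8.81, 8.65, 8.58 and 8.50 with E2 at 3 h, against 7.04, 7.11, 6.99 and 6.91 with vehicle. FOS, the AP-1 subunit that is the textbook immediate-early gene, read 7.09, 7.0, 6.70 and 6.67 with E2, against 5.55, 5.10, 5.21 and 5.19 with vehicle. All of its vehicle arrays lay below 6.11, the dim level named above, and its difference was 1.60 ± 0.09. SNAI1, a zinc-finger repressor known to bind the CDH1 promoter, read 7.60, 7.57, 6.91 and 7.37 with E2, against 6.20, 6.25, 6.03 and 6.04 with vehicle. ELF3, an epithelial ETS factor, was higher by 1.15 ± 0.04, JARID2, a cofactor of Polycomb repressive complex 2, by 1.14 ± 0.04, and ZMIZ1, a coactivator of Notch and steroid receptors, by 1.07 ± 0.03. CEBPB, a bZIP factor of the mammary and stress responses, was higher by 0.71 ± 0.03, and SKIL, a SMAD corepressor, by 0.63 ± 0.08. CDH1 itself, counted under adhesion, was also a member, with a 3 h difference of 0.75 ± 0.05. The other CDH1 probe set was dim and read 5.95 with E2 and 5.65 with vehicle at 3 h, a difference of 0.30.

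**Figure D2:**
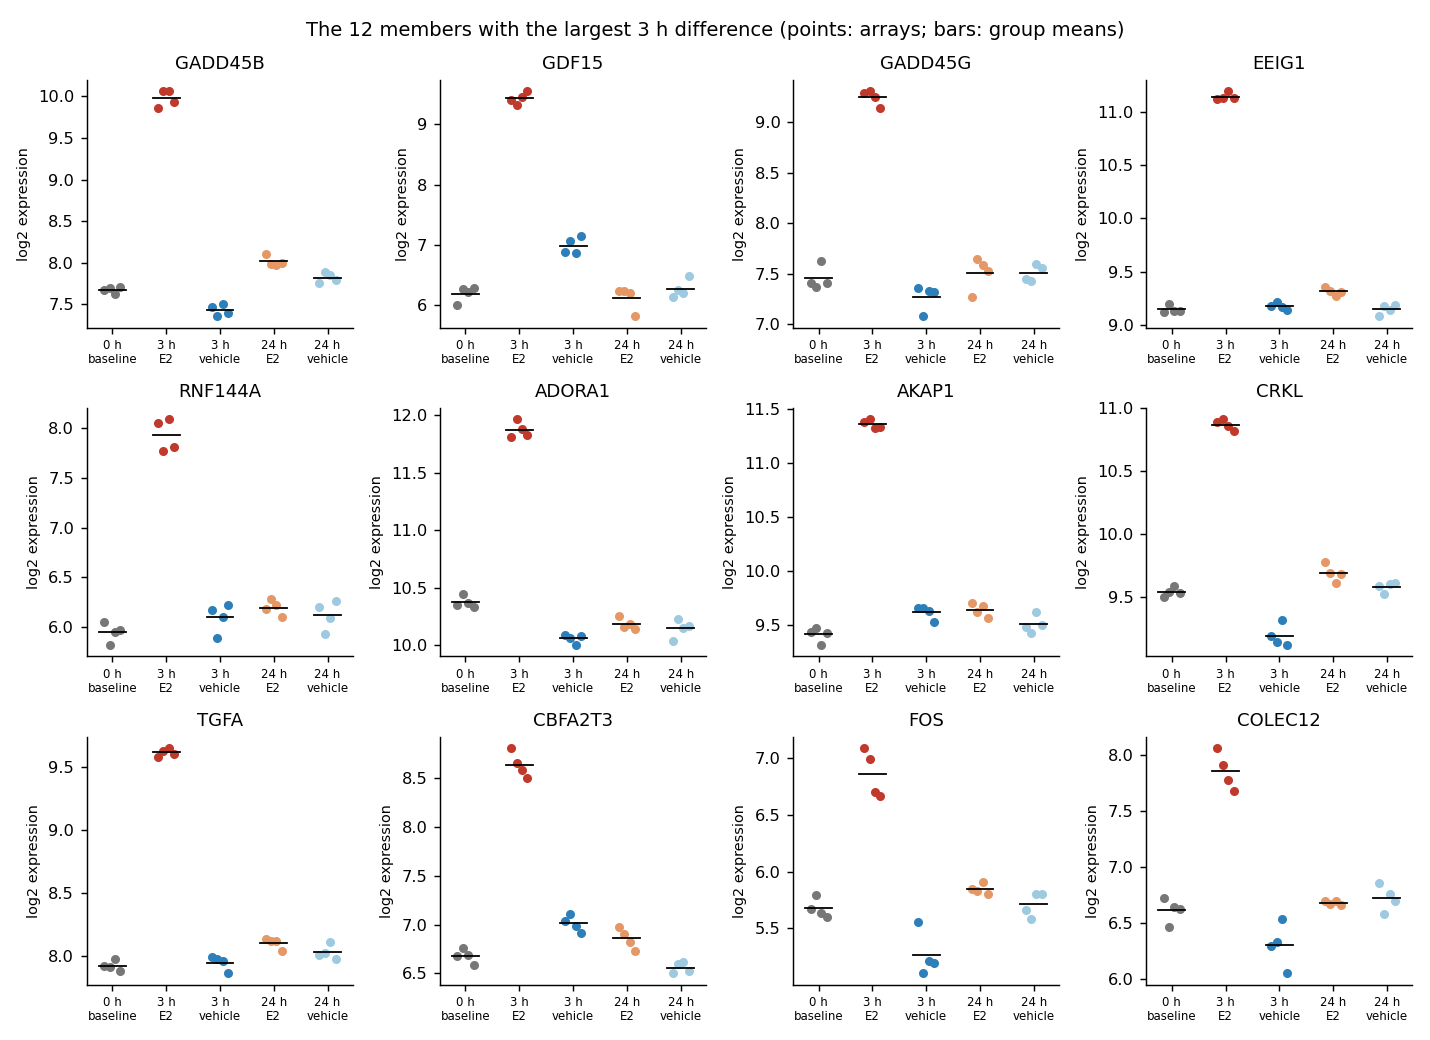
Log2 level of the 12 members with the largest 3 h difference on each array, by group (0 h baseline, 3 h E2, 3 h vehicle, 24 h E2, 24 h vehicle), with points for the 4 arrays and bars for the means. In each panel the E2 arrays at 3 h lie above all other arrays. GADD45B ranges from 9.86 to 10.06 there, and the vertical scales differ between panels.

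Intracellular signalling genes, 16 members, included adaptors, anchors and kinase subunits. AKAP1, which anchors protein kinase A at mitochondria, read 11.38, 11.40, 11.32 and 11.33 with E2 at 3 h, against 9.66, 9.66, 9.63 and 9.53 with vehicle. CRKL, an adaptor downstream of receptor kinases, read 10.89, 10.91, 10.86 and 10.82 with E2, against 9.19, 9.14, 9.32 and 9.12 with vehicle. In both, every E2 array lay above every vehicle array. CCDC88C, a regulator of Dishevelled and G proteins, was higher by 1.48 ± 0.08, PRKAG2, a regulatory subunit of the energy sensor AMPK, by 1.30 ± 0.04, SYNJ2, a phosphoinositide phosphatase, by 1.05 ± 0.03, and the kinase JAK2 by 1.00 ± 0.06.

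Protein and RNA turnover, 9 members with a median 3 h difference of 1.07, included the ubiquitin ligase RNF144A, the autophagy kinase ULK1 and the receptor for autophagy of the endoplasmic reticulum RETREG1. RNF144A read 8.05, 7.78, 8.09 and 7.82 with E2 at 3 h, against 6.17, 5.89, 6.09 and 6.22 with vehicle. ULK1 was higher by 1.15 ± 0.05 and RETREG1 by 1.15 ± 0.04. BACE1, a membrane protease that cleaves the amyloid precursor protein, was higher by 1.19 ± 0.06, and UPF1, the helicase of nonsense-mediated decay, by 1.07 ± 0.05.

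Metabolism and transport genes, 13 members, had a median 3 h difference of 0.77. PTGES, the inducible prostaglandin E synthase, read 10.77, 10.71, 10.80 and 10.77 with E2 at 3 h, against 9.29, 9.22, 9.25 and 9.19 with vehicle. SLC2A1, the GLUT1 glucose transporter, read 9.53, 9.60, 9.53 and 9.58 with E2, against 8.48, 8.53, 8.44 and 8.45 with vehicle. Cytoskeleton and adhesion genes, 16 members with a median of 0.852, included ARAP3, a GTPase-activating protein for Arf, with 1.21 ± 0.08, and EFHD2, a calcium-binding actin regulator, with 1.19 ± 0.06. Of the 15 members in none of these roles, EEIG1, known as an early estrogen-induced gene, was highest and read 11.12, 11.13, 11.20 and 11.13 with E2, against 9.17, 9.22, 9.17 and 9.15 with vehicle. The roles were assigned with the members known, so the medians describe these genes and are no test of a role.

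Against the baseline the members were higher with E2 at 3 h and scattered on both sides with vehicle at 3 h. E2 at 3 h minus baseline was above 0 in all 105 members, with a median of 0.828 and a range of 0.246 to 3.24, and all 4 E2 arrays lay above all 4 baseline arrays in each member, where 15.6% of all genes did. The rule fixed much of this, since the same E2 arrays chose the members. In 86 members the difference reached 0.585, as in 3.1% of all genes, and in 19 it did not. Vehicle at 3 h minus baseline ran from -0.594 to 0.792 with a median of -0.0458. All 4 vehicle arrays lay below the baseline in 36 members, where 13.3% of all genes did, and above it in 16, where 12.1% did. A low vehicle level enters the rule's difference, so a surplus of low vehicle values comes with the choice.

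Some members, picked after their values were seen, had a vehicle level at 3 h well away from baseline. LRP4 read 7.29, 7.06, 7.24 and 7.10 with E2 at 3 h and 6.26, 6.23, 6.0 and 6.20 with vehicle at 3 h, against 6.65, 6.70, 6.86 and 6.85 at baseline. More of its difference between E2 and vehicle thus came from vehicle, which was 0.59 under baseline, than from E2, which was 0.41 over it. The same held for THAP10, a zinc-finger protein, with E2 0.25 over and vehicle 0.42 under the baseline, and for GRK5, a kinase of G-protein-coupled receptors, with 0.32 over and 0.41 under. In NXPE3, FOS and SEMA3F vehicle was also below baseline, at -0.49, -0.41 and -0.40, but E2 was farther above it, at 0.69, 1.19 and 0.88. On the other side, vehicle at 3 h was higher than baseline by 0.79 in GDF15, by 0.59 in the phosphatase PTPRE, by 0.41 in the transporter SLC10A3 and by 0.39 in both SKIL and TMEM51. For these genes the distance of E2 from baseline exceeded that from vehicle, and was 1.26 in PTPRE and 1.02 in SKIL.

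**Figure D3:**
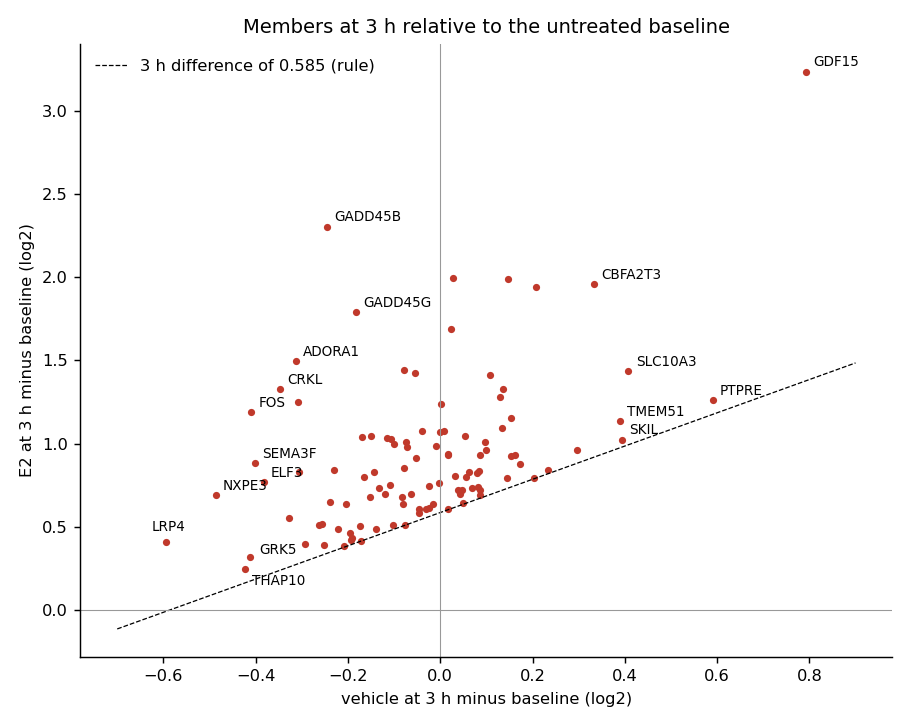
Vehicle at 3 h minus baseline (horizontal axis, log2) and E2 at 3 h minus baseline (vertical axis, log2) for the 105 members, each a point. Points lie on or above the dashed line, where E2 minus vehicle is 0.585, because the rule requires it, and GDF15 is at the upper right with 3.24 for E2 and 0.79 for vehicle.

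An RNA-quality control also differed between these groups. The 3′ minus 5′ signal of ACTB was 0.385 ± 0.0324 with E2 at 3 h, 0.315 ± 0.0271 with vehicle at 3 h and 0.466 ± 0.0101 at baseline (SD, n = 4 each), with no array of one group inside the range of another. At 24 h it was 0.384 ± 0.0142 with E2 and 0.397 ± 0.0316 with vehicle. The same signal of GAPDH was between -0.148 and -0.116 in every group mean. Their part in the members' values was not tested.

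At 24 h most members, like most genes, were near the baseline. E2 at 24 h was within 0.3 of the baseline in 93 members (88.6%), where 83.5% of all genes were, and vehicle at 24 h in 104 (99%), where 97.7% of all genes were. E2 at 24 h minus E2 at 3 h was below 0 in every member, from -3.31 to -0.0926, as in 46.9% of all genes, and this sign is largely fixed by the rule, which asks for high E2 values at 3 h. The smaller shifts that remained were tested with limma, comparing the mean of both 24 h groups with the baseline, which the rule did not set directly. At an adjusted p under 0.05, 33 of 105 members (31.4%) were higher at 24 h, where 14.2% of all genes were, and 4 (3.81%) were lower, where 14.5% were. No member changed by 1.5-fold, as 1.15% of all genes did upward and 0.426% downward. The rule's 24 h limit leaves out genes that E2 moved far from vehicle, which the shares over all genes include. Of the 138 genes higher by 1.5-fold, 39 were induced at both times. The absence of such a change in members thus comes in part with the choice. The median difference from baseline was 0.0639 over the members and -0.0136 over all genes.

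With the 24 h treatments taken apart, more members were called higher with E2 than with vehicle. The rule used the 24 h arrays of both treatments, so these counts are a description and not a test. The shares over all genes also include genes outside the rule's 24 h limit. With E2 at 24 h alone against the baseline, 49 members (46.7%) were higher, where 19.2% of all genes were, and 12 (11.4%) lower, where 22.4% were. With vehicle at 24 h alone, 9 members (8.57%) were higher, where 7.55% of all genes were, and 6 (5.71%) lower, where 4.37% were. A 24 h difference between E2 and vehicle within 0.3 was allowed by the rule and was above 0 in 74 members, and it enters the mean of both groups. All 4 E2 arrays at 24 h lay above all baseline arrays in 48 members, where 18.7% of all genes did, and below them in 12, where 22.1% did. All 4 vehicle arrays at 24 h lay above in 17, where 11.5% of all genes did, and below in 7, where 8.22% did. By the limma call, the share of members above baseline in vehicle-treated cells was thus near that of all genes. By the position of all 4 arrays it was larger, at 16.2% against 11.5%.

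**Figure D4:**
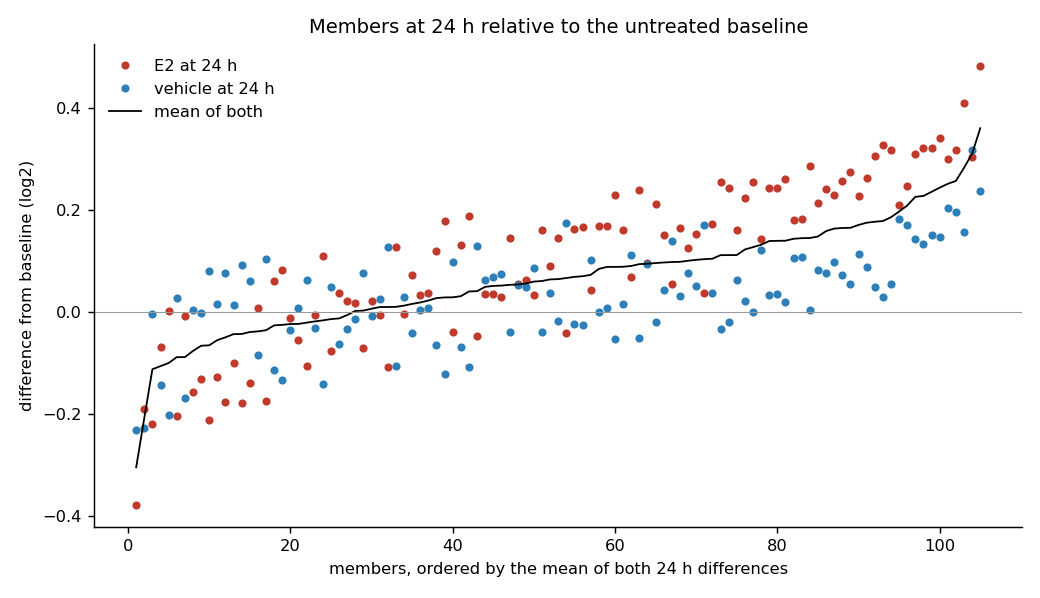
Difference from baseline at 24 h (vertical axis, log2) of the 105 members, ordered along the horizontal axis by the mean of both treatments (line), with E2 in red and vehicle in blue. The mean runs from -0.305 for TTLL12 to 0.36 for ACKR3, and red points lie above blue ones for 74 members.

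All 8 arrays at 24 h lay above the 4 baseline arrays in 10 members (9.52%), where 4.12% of all genes did. They lay below them in 2 members (1.9%), where 2.78% of all genes did. ACKR3, ELF3, SYNJ2, RETREG1, SEMA3F and GADD45B are among those above, and TTLL12 and ADORA1 are those below. ACKR3 rose most: it read 11.55, 11.47, 11.51 and 11.51 with E2 at 24 h and 11.31, 11.23, 11.29 and 11.22 with vehicle at 24 h, against 11.05, 10.99, 11.03 and 11.04 at baseline, an increase of 0.36 ± 0.03 (limma, adjusted p = 1.6e-09). ELF3 read 9.39, 9.44, 9.42 and 9.40 with E2 and 9.38, 9.47, 9.45 and 9.41 with vehicle, against 9.12, 9.05, 9.11 and 9.15 at baseline, and its increase of 0.31 ± 0.03 (limma, adjusted p = 4.2e-07) was of like size in both treatments. SYNJ2 rose by 0.28 ± 0.03, RETREG1 by 0.25 ± 0.03 and SEMA3F by 0.23 ± 0.03, with limma adjusted p of 1.3e-07, 2.6e-06 and 1.1e-06. These 5 genes also passed with vehicle alone, with increases of 0.133 to 0.317. GADD45B rose by 0.24 ± 0.04 (limma, adjusted p = 0.00013), but with vehicle alone its difference was 0.15 and did not pass (limma, adjusted p = 0.054).

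TTLL12, a member of the tubulin tyrosine ligase-like family, fell most. It read 8.45, 8.37, 8.26 and 8.42 with E2 at 24 h and 8.40, 8.49, 8.66 and 8.54 with vehicle at 24 h, against 8.77, 8.78, 8.71 and 8.74 at baseline, and it fell by 0.31 ± 0.04 (limma, adjusted p = 1.2e-05). ADORA1 fell by 0.21 ± 0.04 (limma, adjusted p = 0.00019), so that a gene far above baseline at 3 h with E2 lay below it at 24 h in both treatments. With vehicle its difference from baseline was already -0.31 at 3 h, and it was -0.23 at 24 h. The other 2 members that fell were ZPR1, a zinc-finger protein, by 0.10 and SLC2A1 by 0.09, with limma adjusted p of 0.025 and 0.042. In ZPR1 the 24 h difference from baseline was 0.00 with E2 and -0.20 with vehicle, and in SLC2A1 it was -0.01 with E2 and -0.17 with vehicle. All 4 also passed with vehicle alone, and 2 of the 4 passed when baseline array B, C or D was left out or with E2 alone. Among the members with the largest 3 h differences, GDF15 differed from baseline by 0.00 ± 0.08 and GADD45G by 0.05 ± 0.07 at 24 h, with limma adjusted p of 0.99 and 0.63, while FOS differed by 0.10 ± 0.08 (limma, adjusted p = 0.4).

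Members were 0.878% of all genes measured, and lists of pathways known for early responses held 0 to 3 of them each. These counts are a description of lists of 13 to 36 genes. Over all genes, 2.73% were higher and 2.58% lower by 1.5-fold with E2 at 3 h, and 14.2% rose and 14.5% fell in the 24 h test. Of 29 measured immediate-early genes, FOS alone was a member. In this list 6 genes were higher by at least 1.5-fold with E2 at 3 h and 2 lower, and 3 belonged to the genes induced at both times, among them EGR3, with differences of 3.32 at 3 h and 3.16 at 24 h, and MYC, with 2.35 and 1.02. The related AP-1 subunit FOSL2 had a 3 h difference of 1.94, against 1.60 for FOS, and was left out by its 24 h difference of 0.48. EGR1 had 0.18 and 0.11, and JUN had 0.17 and -0.62. EGR1, JUN, FOSL2 and MYC were picked after their values were seen. In the 24 h test 8 genes of this list rose and 1 fell, and the 3 with the smallest p were EGR3 at 1.5, JUND at 0.25 and MAFF at 0.30.

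Of 23 stress and growth-arrest genes, GADD45B, GDF15 and GADD45G were members. At 3 h 6 of the list were higher and 6 lower by 1.5-fold, where 2.73% and 2.58% of all genes were. The related GADD45A went the other way: its E2 minus vehicle difference was -0.70 at 3 h and -1.15 at 24 h, and it fell by 0.41 in the 24 h test (limma, adjusted p = 2.8e-08). The p53 targets MDM2 and PMAIP1 had differences of 1.87 and 1.94 at 3 h and of 2.02 and 1.94 at 24 h, so they were not members. In this list 6 genes rose and 9 fell in the 24 h test, where 14.2% and 14.5% of all genes did.

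Single members came from 4 other lists: SKIL of 33 TGF-beta and BMP regulators, CEBPB of 22 amino-acid and unfolded-protein response genes, SLC2A1 of 20 glucose and hypoxia genes, and SNAI1 of 36 genes known as estrogen-induced in ductal lines. Of the last list 25 were higher by 1.5-fold at 3 h, where 2.73% of all genes were. In that list 18 belonged to the genes induced at both times, which were 133 of all 11963 genes. Receptor kinase feedback (19 genes), NF-kappaB cytokine (19), ribosome biogenesis (33), mRNA decay (18), Notch and WNT (26), BCL2 family (14), and polyamine and transport genes (13) held 0 members, from which nothing is read at the overall share of members.

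Other probe sets of the same genes, which the rule did not use, gave a check on the measurement. There were 79 for 50 members, and 55 members had 1 probe set. The 3 h difference was above 0 in 75 of the 79 and at least 0.585 in 35, and the 24 h difference was within 0.3 in 74. Over all genes, by their chosen probe sets, the 3 h difference was above 0 in 5993 of 11963 and at least 0.585 in 2.73%. The 24 h difference was within 0.3 in 82.4% of all genes, so the count of 74 says little about the members. Among the 54 with an E2 mean of at least 6.5, 53 were above 0 and 32 reached 0.585, with a median of 0.70, while among the 25 dimmer ones 3 reached it, with a median of 0.25. The other 3 probe sets of GADD45B gave 1.76, 1.97 and 1.63. For 25 of the 50 genes no other probe set reached 0.585. Those of TGFA gave 0.20 and 0.27, and those of SYNJ2 gave 1.03, 0.11, 0.05 and 0.02, so these differences rest on part of the gene's probe sets.

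The median over the members varied little between replicate arrays. Relative to baseline it was 0.806 to 0.849 on the E2 arrays at 3 h and -0.0609 to -0.00894 on the vehicle arrays at 3 h. It was 0.071 to 0.139 on the E2 arrays and -0.000519 to 0.0611 on the vehicle arrays at 24 h. The 133 genes that passed 0.585 at both times had medians of 1.08 to 1.16 on the E2 arrays at 3 h and 0.885 to 0.996 on those at 24 h. The difference between the sets at 24 h is set by their rules, and that at 3 h was not tested. The 82 genes of the mirror rule, lower with E2 at 3 h and near vehicle at 24 h, had a median 3 h difference of -0.678 (2.58% of all genes were lower by 0.585 or more). All 4 vehicle arrays at 3 h lay above baseline in 52 of them, where 12.1% of all genes did, and high vehicle values come with that rule.

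**Figure D5:**
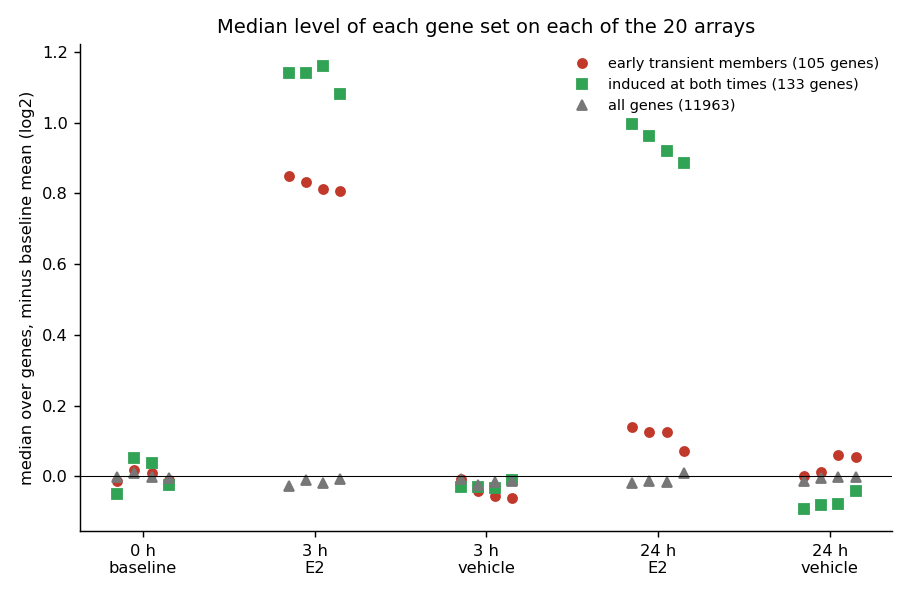
Median over each gene set of the log2 level minus the baseline mean (vertical axis) on each of the 20 arrays, by group. Members (red circles) sit at 0.806 to 0.849 with E2 at 3 h and at 0.071 to 0.139 with E2 at 24 h, where genes induced at both times (green squares) sit at 0.885 to 0.996.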

How the data were processed

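RNA of the 20 SUM44 cultures was hybridised to Affymetrix U133A 2.0 arrays. Each deposited value is the log2 level of a probe set. The submitters' processing notes name RMA and affy as the authors' tools, and versions are not given in the sources used here. Arrays were grouped by title. For the 24 h E2 arrays the treatment field says baseline, which both title and description contradict. Of 22277 probe sets, 19064 had a single gene symbol in the platform annotation, 1043 several and 2108 none, and 62 controls were left out. Probe sets with several or no symbol were not used. Correlations between arrays were 0.998 to 0.999 within groups. Precision is limited by having 4 arrays a group.

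The 24 h test used limma 3.58.1 in R 4.3.3 on all 20 arrays with a mean per group, Benjamini-Hochberg adjustment over 11963 genes and a threshold of 0.05. Tested on simulated data, it missed some of the smallest changes drawn, which were 1.25-fold and of which 76% were recovered. Only 195 genes were called there, against 3435 in the data, and the adjustment is stricter when fewer genes change. The simulated share therefore does not give the share missed in the data. Replicate letters were not used to pair the arrays. Alternatives were the choice of probe set, centring, filtering, array weights, the limma prior, thresholds, each 24 h treatment alone and arrays left out.

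The members, lists and tests were chosen with earlier results of these data known. The genes named are the 25 members with the largest 3 h difference, up to 4 members of each list, the 6 largest increases and decreases among members called in the 24 h test with arrays on the same side of baseline, genes beside the thresholds, and up to 3 other genes of a list by smallest p. Others were picked after their values were seen.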

Additional observations from a re-analysis of the deposited data

Results flagged for a closer look

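Among 190 groups of 4 arrays examined (37 named members and the median over all members, each in 5 groups), 15 held an array far from the other 3 by Dixon's criterion, which chance meets in about 1 in 20 groups. With E2 at 3 h, EFHD2 was low on array D at 8.848. With vehicle at 3 h, ARAP3 was low on array A at 5.12, GADD45G on array B at 7.08 and RETREG1 on array D at 10.16. With E2 at 24 h, array D was low for CEBPB at 11.14, GDF15 at 5.816 and NXPE3 at 5.385 and high for PDGFB at 8.319, and array A was high for GADD45B at 8.108 and ULK1 at 8.891. With vehicle at 24 h, BACE1 was low on array A at 7.249. At baseline, array D was low for JARID2 at 9.397, PDGFB at 8.259 and PRKAG2 at 7.935, and array A was high for NXPE3 at 6.12. The gaps for GADD45G and EFHD2 were small beside their 3 h differences of 1.97 and 1.19.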

How the results depend on the processing

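The rule gave 72 to 130 genes under other settings, apart from 35 when the 3 h difference had to reach 1, and 98 to 116 with an array left out. Centring each array gave 106 genes, 98 of them shared, and the mean of all probe sets 93, with 83 shared. The 24 h test called 3435 genes (1703 higher, 1732 lower). E2 alone called 4978 (2293 higher, 2685 lower), vehicle alone 1426 (903 higher, 523 lower), and a 1.5-fold minimum left 189 (138 higher, 51 lower). The 33 higher members became 9 with vehicle alone, 17 at an adjusted p under 0.01 and 0 at 1.5-fold, and the 4 lower ones 12 with E2 alone, 2 under 0.01 and 0 at 1.5-fold. With an array left out, calls ran from 2877 to 3406 (higher 1438 to 1709, lower 1439 to 1740), and members from 23 to 34 higher and from 2 to 5 lower, with 2 lower without baseline array B or C (without D, 3 lower, 2 of them shared). With the replicate block, 3401 genes were called, with 33 members higher (32 shared) and 4 lower. Among the 0 h and 24 h groups, deviations of same-letter arrays from their group means correlated by -0.245 to 0.225, over 0.1 in 1 of 12 pairs. The 3 h groups were not compared, and these values cannot tell whether a letter stands for a shared culture or day. No direction reversed among the named results. In repeats of the 24 h test for the named called members, 175 kept their side of the threshold and 9 did not. Of repeats of the named 3 h differences, 347 moved by less than the SD of the gene's vehicle arrays at 3 h and 23 by more. The cause was not tested. Dim probe sets limit FOS, RNF144A, CCDC88C, ARAP3, NXPE3, PPFIA4 and DHRS3, whose vehicle mean at 3 h was below 6.11.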
